A study of Mus musculus with 6 samples.

Results

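Cajal-Retzius cell genes are described here by 10 members: Reln, Calb2, Cacna2d2, Ndnf, Lhx1, Lhx5, Ebf2, Ebf3, Nhlh2 and Barhl2. The members were chosen by symbol as genes known from these cells, and all 10 were found among the 24444 gene symbols of the table. All 10 also passed the filter on low values and are among the 14249 genes tested. Poly(A) RNA had been sequenced from tissue labelled telencephalon, the forebrain region that forms the cortex and basal ganglia, of C57BL/6J mouse embryos at E12.5. There were 3 libraries of Arl13b-/- embryos and 3 libraries of wild-type embryos. The labels give neither the mutant allele nor the sex, and do not say whether each library is a separate embryo, so each p-value speaks of the spread among libraries, which may be technical.

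Cajal-Retzius cells are early-born neurons that lie beneath the pia of the developing cortex and secrete Reelin, the protein that guides migrating neurons into layers. They arise outside the main cortical field, from the cortical hem, the septum, the pallial-subpallial boundary and the thalamic eminence, and spread over the cortical surface. Cells from the hem, the septum and the thalamic eminence express the transcription factor Trp73, whereas those from the pallial-subpallial boundary do not. Several of their transcription factors also serve neurons of the diencephalon and midbrain, so in bulk tissue none of the members stands for these cells alone. In bulk RNA, fewer cells of a type and less RNA per cell cannot be told apart.

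The libraries differed in ways that the labels do not give. Depth, estimated from the value of a single read, ranged from about 27600000 reads in Arl13b-/- 2 to about 51600000 reads in wild type 1. Across tested genes, Arl13b-/- 2 correlated with the other libraries at between 0.702 and 0.860, and wild type 1 with Arl13b-/- 1 and 3 and wild type 2 and 3 at between 0.880 and 0.898, against 0.985 to 0.995 among those 4. Arl13b-/- 2 and wild type 1 had fewer cell cycle transcripts, with summed normalized counts over 11 genes of 2432 and 21095, against 80663 to 92910 in the other libraries. Over 8 radial glia genes the sums were 3506 and 41414, against 98128 to 124324. Over 11 genes of postmitotic neurons they were higher in these libraries, at 587620 in Arl13b-/- 2 and 266932 in wild type 1, against 154017 to 163748. Emx1, a transcription factor of the dorsal telencephalon, had 145, 2641 and 25.0 normalized counts in Arl13b-/- 1 to 3, against 633, 875 and 1161 in wild type 1 to 3, so it was lowest in Arl13b-/- 3. Midbrain genes such as En1 and En2 were present in all libraries but Arl13b-/- 2, where 8 of 9 such genes were listed at 0. Kdm5d, a Y-linked gene, had 1568 and 1599 normalized counts in wild type 2 and 3 and under 1 in every other library, so sex and genotype cannot be told apart when these are set against Arl13b-/- 1 and 3. The members are compared over all 6 libraries and over Arl13b-/- 1 and 3 against wild type 2 and 3, called the comparison of 4 libraries, which leaves out the libraries that stand apart. Other gene lists are described by the comparison of 4 libraries, with their counts and medians over 6 libraries beside it.

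No member passed an adjusted p of 0.05 in either comparison. Over all 6 libraries limma called 0 of 14249 genes (0%), and before adjustment 1 member, Reln, lay under 0.05, as did 1.14% of genes tested. In the 4 libraries limma called 36 genes (0.253%), none of them a member. Before adjustment all 10 members lay under 0.05 there, against 14.4% of genes tested, 8.08% higher and 6.33% lower. The groups of 2 did not overlap for any of the 10 members, 8 of them higher and 2 lower in Arl13b-/- 1 and 3, against 47.5% of genes tested, 29.3% higher and 18.1% lower. The members' median difference, Arl13b-/- minus wild type, was −0.76 on the log2 scale over 6 libraries and 0.43 over 4, beside 0.0026 and 0.023 for all genes tested. The sign of the members' median thus turned with the 2 libraries left out. Of all genes tested, 7159 were above 0 and 7090 below over 6 libraries, and 8384 above and 5865 below over 4. In the comparison of 4 libraries Reln and Calb2 were lower, and Ndnf, Cacna2d2 and the 6 transcription factors were higher in Arl13b-/-.

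**Figure D1:**
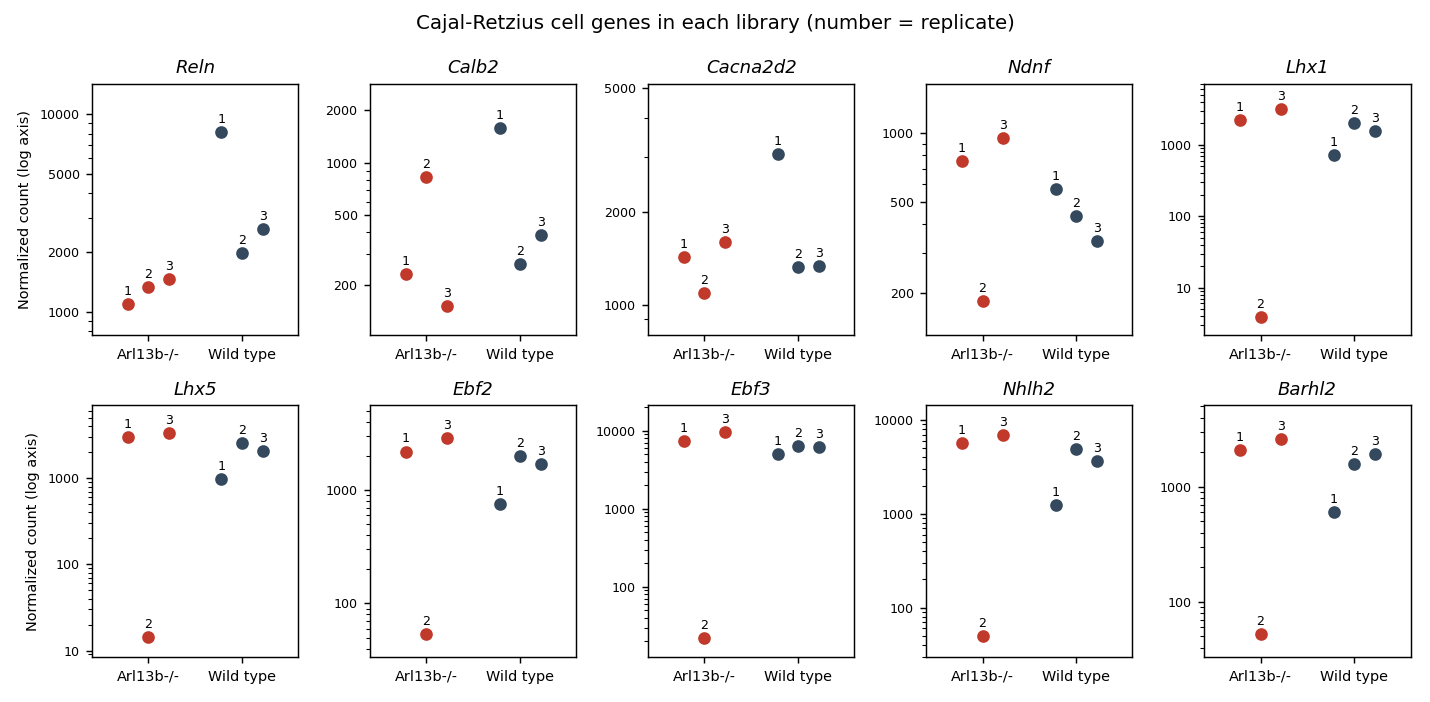
Normalized counts (log axis) of the 10 members in each of 6 libraries, with Arl13b-/- libraries in red on the left and wild-type libraries in grey on the right of each panel, and the replicate number above each point. Reln is the member whose groups of 3 do not overlap, and the 6 transcription factors drop in Arl13b-/- 2, for example to 3.93 for Lhx1.

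Reln encodes Reelin itself. It had 1092, 1328 and 1470 normalized counts in Arl13b-/- 1 to 3, against 8100, 1992 and 2637 in wild type 1 to 3. Every Arl13b-/- library lay below every wild-type library, and wild type 1 lay far above the other wild-type libraries. It was the 1 member of 10 whose groups of 3 did not overlap, against 8.26% of all genes tested (4.67% higher and 3.59% lower in Arl13b-/-). The variance-stabilised level averaged 10.41 ± 0.21 in Arl13b-/- and 11.80 ± 1.05 in wild type (SD, n = 3 each). The difference of −1.40 ± 0.54 (SE) did not pass in limma (adjusted p = 0.990), and an exact permutation test, two-sided, gave p = 0.1, the smallest value possible for 3 against 3. In the comparison of 4 libraries Reln differed by −0.82 ± 0.18 (SE; limma adjusted p = 0.151), and the mean normalized count in Arl13b-/- was 0.553 times that in wild type. Its direction was the same with each library left out in turn, from −1.79 without wild type 2 to −0.80 without wild type 1 in the 6-library fit, and from −1.03 without Arl13b-/- 3 to −0.62 without Arl13b-/- 1 in the 4-library fit.

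Calb2 encodes calretinin, a calcium-binding protein of Cajal-Retzius cells and of other neurons. It had 232, 822 and 152 normalized counts in Arl13b-/- 1 to 3, against 1569, 263 and 386 in wild type 1 to 3. The highest values lay in Arl13b-/- 2 and wild type 1, so the groups of 3 overlapped, whereas Arl13b-/- 1 and 3 lay below wild type 2 and 3. The difference was −0.70 ± 0.81 (SE) over 6 libraries and −0.61 ± 0.21 over 4 (limma adjusted p = 0.990 and 0.297). Cacna2d2, an auxiliary subunit of voltage-gated calcium channels, had 1425, 1096 and 1599 normalized counts in Arl13b-/- 1 to 3 and 3063, 1324 and 1334 in wild type 1 to 3. It too was highest in wild type 1 and otherwise varied little, with a difference of −0.36 ± 0.38 (SE) over 6 libraries and 0.18 ± 0.070 over 4 (limma adjusted p = 0.990 and 0.347). Without wild type 1 the 6-library difference of Cacna2d2 was 0.029, so it rested on that library. That of Calb2 was −0.0039 without wild type 1 and −1.30 without Arl13b-/- 2, so it turned on which of these high libraries was kept.

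Ndnf encodes a secreted neurotrophic factor found in Cajal-Retzius cells and, later, in interneurons of the outermost cortical layer. It had 756, 185 and 949 normalized counts in Arl13b-/- 1 to 3, against 568, 434 and 337 in wild type 1 to 3. Arl13b-/- 1 and 3 held the highest values of all libraries and Arl13b-/- 2 the lowest. In the comparison of 4 libraries Ndnf had the largest difference of the members, 1.03 ± 0.15 (SE; limma adjusted p = 0.0797), with a mean normalized count in Arl13b-/- 2.21 times that in wild type. Over 6 libraries the difference was 0.23 ± 0.58 (SE; limma adjusted p = 0.990). It was −0.0020 without Arl13b-/- 1, −0.15 without Arl13b-/- 3 and 0.86 without Arl13b-/- 2. With libraries weighted by their spread, which gave Arl13b-/- 2 and wild type 1 weights of 0.0255 and 0.102, Ndnf rose by 0.98 (limma adjusted p = 0.0398, and between 0.785 and 0.9999 under the other 6-library settings).

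The 6 transcription factors varied together from library to library, with their lowest values in Arl13b-/- 2. Promoters of 4 members are shown, 3 of these factors and Reln, which did not follow them, as the 250 bases before the RefSeq start on GRCm38.p6, with matches to the E-box CANNTG, the motif of basic helix-loop-helix factors such as NHLH2, in capitals.
Lhx1 promoter (chr11:84525535-84525784, minus strand): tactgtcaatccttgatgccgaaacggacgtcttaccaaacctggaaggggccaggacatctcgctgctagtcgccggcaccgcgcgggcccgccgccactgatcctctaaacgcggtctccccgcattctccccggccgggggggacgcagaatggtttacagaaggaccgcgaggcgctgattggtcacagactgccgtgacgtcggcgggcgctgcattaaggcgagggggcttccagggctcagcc
Nhlh2 promoter (chr3:102009895-102010144, plus strand): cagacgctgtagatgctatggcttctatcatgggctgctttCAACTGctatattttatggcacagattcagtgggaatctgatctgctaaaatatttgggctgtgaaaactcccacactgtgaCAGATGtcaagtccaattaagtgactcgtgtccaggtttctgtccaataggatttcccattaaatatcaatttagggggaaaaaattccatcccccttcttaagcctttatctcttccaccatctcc
Barhl2 promoter (chr5:106458167-106458416, minus strand): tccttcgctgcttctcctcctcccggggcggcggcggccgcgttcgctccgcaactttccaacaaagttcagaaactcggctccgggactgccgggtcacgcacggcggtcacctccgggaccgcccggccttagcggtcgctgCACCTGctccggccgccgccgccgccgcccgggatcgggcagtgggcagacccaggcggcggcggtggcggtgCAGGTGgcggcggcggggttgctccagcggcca
Reln promoter (chr5:22344706-22344955, minus strand): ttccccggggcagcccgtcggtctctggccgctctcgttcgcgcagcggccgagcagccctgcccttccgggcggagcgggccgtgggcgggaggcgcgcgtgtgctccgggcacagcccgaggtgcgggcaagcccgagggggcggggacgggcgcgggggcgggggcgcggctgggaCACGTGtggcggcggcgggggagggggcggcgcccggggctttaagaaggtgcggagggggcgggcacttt
Promoters were matched for 6 of the 10 members, Reln, Cacna2d2, Lhx1, Ebf3, Nhlh2 and Barhl2, and none was printed for the others. An E-box, which reads the same on both strands, was in 3 of the 6, Reln, Nhlh2 and Barhl2, against 66.2% of 32536 promoters of that length. Lhx1, Ebf3 and Cacna2d2 had none, and the promoters of Ebf3 and Cacna2d2 are not shown. The homeodomain core TAATTA and an EBF motif of TCCC, any 2 bases and GGGA, which also read the same on both strands, were in 0 of the 6, against 4.84% and 0.787% of promoters. No base of the 6 fell in more than 1 match. The Nhlh2 promoter was 42.0% G and C and the other 5 were between 64.8% and 80.0%, beside a median of 52.4%.

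Lhx1 and Lhx5, LIM homeodomain factors, are needed in Cajal-Retzius and other early neurons. Lhx1 had 2219, 3.93 and 3200 normalized counts in Arl13b-/- 1 to 3, against 723, 2013 and 1574 in wild type 1 to 3. Its value in Arl13b-/- 2 corresponds to 3 reads. Lhx5 had 3000, 14.4 and 3327 in Arl13b-/- 1 to 3, against 965, 2540 and 2083 in wild type 1 to 3. Both were highest in Arl13b-/- 3, then Arl13b-/- 1, and lowest in Arl13b-/- 2.

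Ebf2 and Ebf3 are EBF-family factors of early postmitotic neurons. Ebf2 had 2190, 53.7 and 2862 normalized counts in Arl13b-/- 1 to 3, against 750, 1982 and 1707 in wild type 1 to 3. Ebf3 had 7356, 22.3 and 9776 in Arl13b-/- 1 to 3, against 4995, 6427 and 6135 in wild type 1 to 3. The order of the libraries was that of Lhx1, although wild type 1 stood closer to the other wild-type libraries for Ebf3, at 79.5% of the mean of wild type 2 and 3.

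Nhlh2 encodes a basic helix-loop-helix factor and Barhl2 a homeodomain factor, both active in newly formed neurons. Nhlh2 had 5672, 49.8 and 6991 normalized counts in Arl13b-/- 1 to 3, against 1232, 4868 and 3659 in wild type 1 to 3. Barhl2 had 2106, 52.4 and 2621 in Arl13b-/- 1 to 3, against 608, 1586 and 1915 in wild type 1 to 3. With the average of wild type 2 and 3 set to 100%, the 6 factors stood at 117% to 133% in Arl13b-/- 1, 0.219% to 2.997% in Arl13b-/- 2, 144% to 178% in Arl13b-/- 3 and 28.9% to 79.5% in wild type 1.

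**Figure D2:**
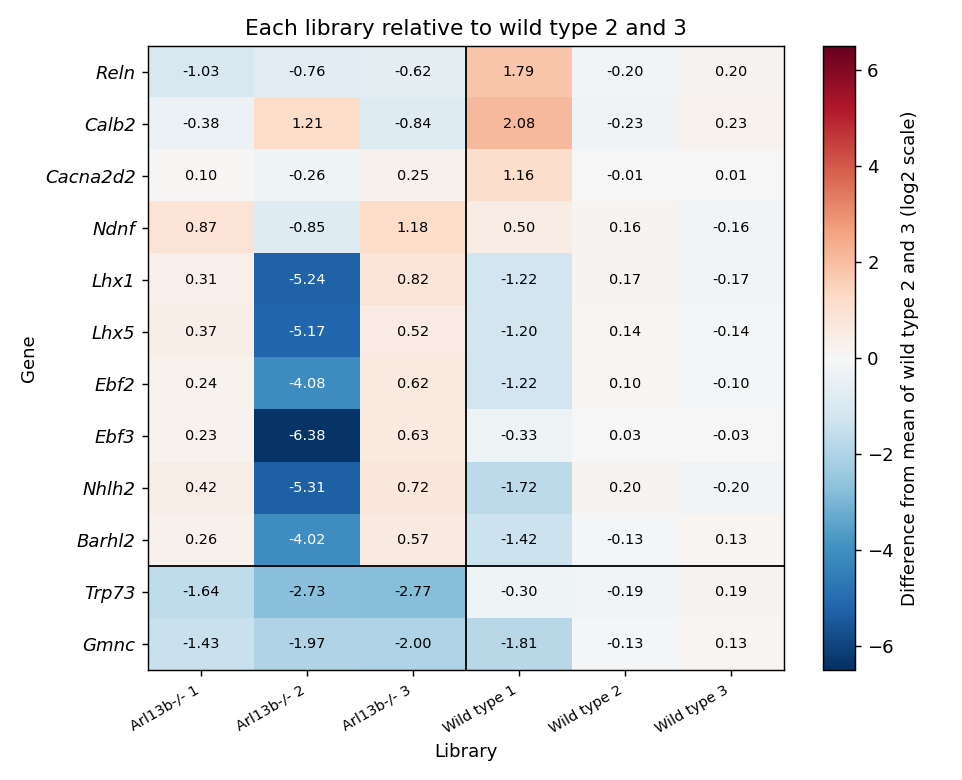
Variance-stabilised values of the 10 members and of Trp73 and Gmnc (rows) in each library (columns, Arl13b-/- left of wild type), as the difference from the mean of wild type 2 and 3 on the log2 scale. The 6 transcription factors lie between −6.38 and −4.02 in Arl13b-/- 2, while Trp73 lies between −2.77 and −1.64 in the 3 Arl13b-/- libraries.

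Over 6 libraries the differences of the 6 factors ran from −1.73 for Ebf3 to −0.59 for Barhl2, with SEs of 1.31 to 1.90 (limma adjusted p = 0.990 for each). All turned positive without Arl13b-/- 2, from 0.54 for Ebf3 to 1.14 for Nhlh2, so the sign of the 6-library difference rested on that library. In the comparison of 4 libraries they were 0.56 ± 0.19 (SE) for Lhx1, 0.45 ± 0.10 for Lhx5, 0.43 ± 0.14 for Ebf2, 0.43 ± 0.13 for Ebf3, 0.57 ± 0.16 for Nhlh2 and 0.42 ± 0.13 for Barhl2, with limma adjusted p between 0.175 for Lhx5 and 0.286 for Lhx1. Leaving out Arl13b-/- 3, the library lowest in Emx1, gave differences from 0.23 for Ebf3 to 0.42 for Nhlh2. Leaving out Arl13b-/- 1 gave 0.52 for Lhx5 to 0.82 for Lhx1, and 5 members then passed in limma: Ebf3 (adjusted p = 0.00490), Ndnf (0.0102), Ebf2 (0.0221), Lhx1 (0.0267) and Barhl2 (0.0446). Such a fit sets 1 Arl13b-/- library against 2 wild-type libraries and assumes that the lone library varies as they do, and 725 genes passed in it.

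**Figure D3:**
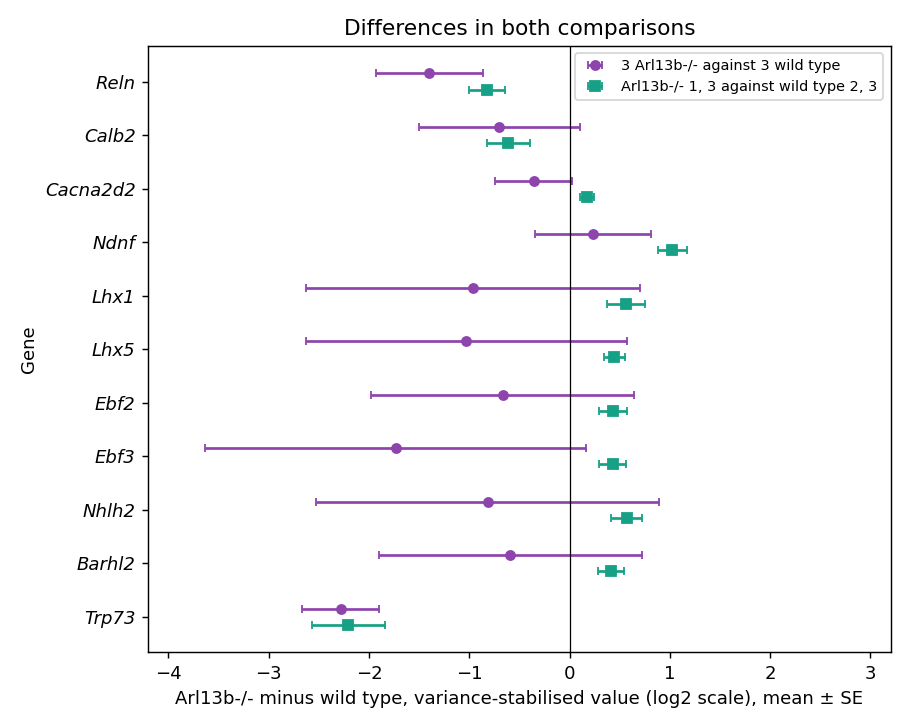
Difference in variance-stabilised value (log2 scale), Arl13b-/- minus wild type, with its SE, for the 10 members and Trp73, over 6 libraries (circles) and 4 libraries (squares). The 6 transcription factors lie below 0 over 6 libraries and between 0.42 and 0.57 over 4, whereas Trp73 lies at −2.28 and −2.20.

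Trp73 and Gmnc had lower values in Arl13b-/- 1 and 3 than in wild type 2 and 3, unlike 8 of the 10 members. Trp73, which Cajal-Retzius cells of the hem, septum and thalamic eminence express, had 166, 49.7 and 47.0 normalized counts in Arl13b-/- 1 to 3, against 516, 561 and 751 in wild type 1 to 3. Every Arl13b-/- library lay below every wild-type library, with a difference of −2.28 ± 0.38 (SE) over 6 libraries and −2.20 ± 0.37 over 4 (limma adjusted p = 0.990 and 0.103). Gmnc, a regulator that acts upstream of Trp73 in the hem, had 39.0, 14.6 and 13.6 in Arl13b-/- 1 to 3, against 20.4, 172 and 218 in wild type 1 to 3. Wild type 1 overlapped the Arl13b-/- libraries, and the difference was −1.20 ± 0.56 (SE) over 6 libraries and −1.72 ± 0.21 over 4 (limma adjusted p = 0.990 and 0.0676). Both genes passed with either Arl13b-/- library left out of the 4 but not with either wild-type library left out (limma adjusted p = 0.00133 and 0.0257 for Trp73 without Arl13b-/- 1 and without Arl13b-/- 3, and 0.00269 and 0.0318 for Gmnc). With library weights over 6 libraries Trp73 fell by 2.08 (limma adjusted p = 0.0414). Both genes also act in multiciliated cells, which the choroid plexus holds, and choroid plexus genes summed to 4553, 208 and 5168 normalized counts in Arl13b-/- 1 to 3, against 29027, 5277 and 5789 in wild type 1 to 3. Single genes dominate these sums. Otx2 made up 3411 and 4051 in Arl13b-/- 1 and 3, and 2600 and 3028 in wild type 2 and 3. Ttr made up 25702 in wild type 1, and had 126 and 227 in Arl13b-/- 1 and 3, against 1211 and 1322 in wild type 2 and 3. Of 7 choroid plexus genes 4 were below 0 and 3 above in the comparison of 4 libraries, and Ttr and Clic6 were called lower. Their part in the values of Trp73 and Gmnc was not tested.

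Among 14 genes listed for the hem, 12 were below 0 and 2 above in the comparison of 4 libraries, with a median of −0.49, beside 0.023 for all genes. Over 6 libraries 13 were below 0 and 1 above, with a median of −0.93 and none past the threshold. In the 4 libraries 1 passed in limma, lower, and 0 passed higher. Wnt2b, a signal secreted by the hem, had 103 and 116 normalized counts in Arl13b-/- 1 and 3, against 293 and 306 in wild type 2 and 3, and fell by 1.09 ± 0.092 (SE; limma adjusted p = 0.0323). This call ended with no filter, without the mean-variance trend, without wild type 2 and without wild type 3 (adjusted p = 0.144, 0.05004, 0.167 and 0.125). Rspo1, which enhances WNT signalling, differed by −0.84 ± 0.095 and Wnt8b, a WNT ligand, by −1.23 ± 0.24 (limma adjusted p = 0.0568 and 0.129). In the left-out libraries Wnt2b had 73.3 normalized counts in Arl13b-/- 2 and 180 in wild type 1, and its difference over 6 libraries was −1.02 ± 0.27 (SE; limma adjusted p = 0.990). Genes of the meninges and head mesenchyme had a median of −0.65 over 4 libraries, with 8 below 0 and 2 above. Those of the surface ectoderm had a median of −1.92, with 10 below 0 and 0 above. The part of these tissues in the differences of the hem list was not tested.

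Genes of the other sources had medians near or above 0 in the comparison of 4 libraries but, like the hem, below 0 over 6 libraries, and differences between the lists were not tested. Of 5 tested genes of the antihem, the strip at the pallial-subpallial boundary, 2 were above 0 and 3 below in the comparison of 4 libraries, with a median of −0.013. Over 6 libraries 1 was above 0 and 4 below, with a median of −0.15. Dbx1, whose lineage yields Cajal-Retzius cells of the septum and ventral pallium, had 4544 and 6238 normalized counts in Arl13b-/- 1 and 3, against 2903 and 2918 in wild type 2 and 3, a difference of 0.86 ± 0.14 (SE), but −0.49 ± 2.22 over 6 libraries. In the 4 libraries Sfrp2, a WNT antagonist, differed by 0.71 ± 0.11 and Tgfa, an EGF-family ligand, by −0.22 ± 0.087 (limma adjusted p = 0.103 for Dbx1, 0.0887 for Sfrp2 and 0.350 for Tgfa). Dbx1 is also a gene of the diencephalon, and it was listed at 0 in Arl13b-/- 2 and had 251 normalized counts in wild type 1.

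For the septum and rostral midline, 5 of 8 genes were above 0 and 3 below in the comparison of 4 libraries, with a median of 0.051 and none past the threshold in limma, and 0 lay under 0.05 before adjustment. Over 6 libraries 1 was above 0 and 7 below, with a median of −0.92. In the 4 libraries Fgf8, the organiser signal of the rostral midline, differed by 0.31 ± 0.13 (SE), Fgf17 by −0.26 ± 0.16 and Fgf18 by 0.35 ± 0.21 (limma adjusted p = 0.361, 0.511 and 0.521). The groups of 2 overlapped for Fgf17 and Fgf18 but not for Fgf8. Fgf8 and Fgf17 were listed at 0 in Arl13b-/- 2.

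Of 11 genes of the diencephalon, including the region of the thalamic eminence, 10 were above 0 and 1 below in the comparison of 4 libraries, with a median of 0.76. Over 6 libraries the sign turned, with 1 above 0 and 10 below and a median of −0.54. In the 4 libraries 1 passed in limma, higher. Gbx2, a factor of the thalamus, had 1498 and 1650 normalized counts in Arl13b-/- 1 and 3, against 718 and 842 in wild type 2 and 3, and rose by 0.96 ± 0.093 (SE; limma adjusted p = 0.0437). It had 2.62 in Arl13b-/- 2 and 466 in wild type 1, and its difference over 6 libraries was −0.54 ± 1.46 (SE; limma adjusted p = 0.990). That call ended with no filter, without the trend, without wild type 2 and without wild type 3 (adjusted p = 0.247, 0.0873, 0.167 and 0.0911). In the 4 libraries Olig3 differed by 1.10 ± 0.14 and Foxb1 by 1.02 ± 0.18 (limma adjusted p = 0.0689 and 0.108), both factors of diencephalic neurons or progenitors.

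The summed level of the diencephalic genes varied in the same direction as the 6 member transcription factors. It was 26428, 248 and 31975 normalized counts in Arl13b-/- 1 to 3, against 14294, 17888 and 18323 in wild type 1 to 3. The 9 midbrain genes, chosen after values were seen, summed to 8712, 2.62 and 11999 in Arl13b-/- 1 to 3, against 3846, 8393 and 6424 in wild type 1 to 3. All 9 were above 0 in the comparison of 4 libraries, with a median of 0.47, and all 9 were below 0 over 6 libraries, with a median of −0.93. Of 6 telencephalic genes all were below 0 in both comparisons, with a median of −0.98 over 4 libraries and −1.37 over 6 and none past the threshold. Surface ectoderm genes summed to 633, 214 and 120 in Arl13b-/- 1 to 3, against 14601, 3703 and 1626 in wild type 1 to 3. For each of the 10 the groups of 3 did not overlap, lower in Arl13b-/-, against 3.59% of genes tested. Red blood cell genes summed to 102521, 63.6 and 284157 in Arl13b-/- 1 to 3, against 7964, 56132 and 72522 in wild type 1 to 3. Genes of the meninges and head mesenchyme had 8 of 10 below 0 in the comparison of 4 libraries and 10 of 10 over 6, with none called. The part of these other tissues in the members' differences was not tested.

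**Figure D4:**
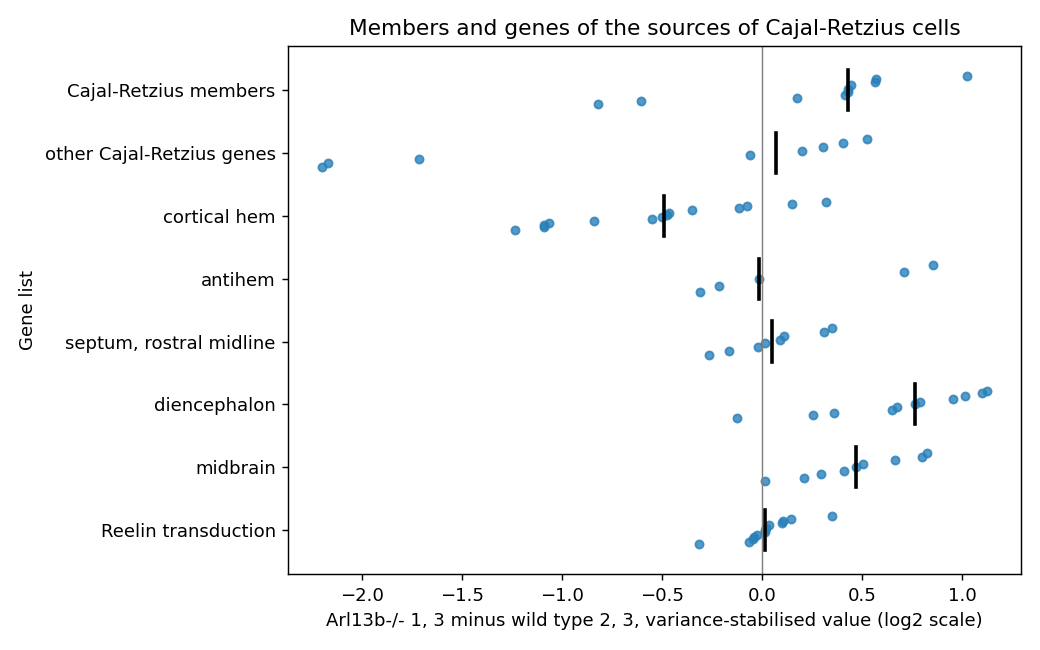
Difference in variance-stabilised value (log2 scale), Arl13b-/- 1 and 3 minus wild type 2 and 3, for each tested gene of 8 lists (points), with the list median as a black bar. Medians lie at 0.43 for the members, −0.49 for the cortical hem, 0.76 for the diencephalon and 0.016 for Reelin transduction.

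The other 8 listed genes of Cajal-Retzius cells, chosen like the members from knowledge of these cells, had differences of both signs in the comparison of 4 libraries, whereas over 6 libraries 0 were above 0 and 8 below, with a median of −1.12. Beside Trp73 and Gmnc, the T-box factor Tbr1, which is also made by most deep-layer neurons, was lower, with 1620 and 369 normalized counts in Arl13b-/- 1 and 3, against 3193 and 4531 in wild type 2 and 3 (−2.17 ± 0.61, SE; −1.20 without Arl13b-/- 3). Ebf1, Nhlh1 and Nr2f2, transcription factors, differed by 0.41 ± 0.10, 0.30 ± 0.12 and 0.20 ± 0.051 over 4 libraries, and by −1.16, −1.14 and −0.35 over 6. Cdkn1a, a cell cycle inhibitor and p53-family target, differed by −0.063 ± 0.12. With the chemokine receptor Cxcr4, whose values follow with those of its ligand, 4 were above 0 and 4 below, and none passed in limma (adjusted p between 0.0676 and 0.850). Before adjustment 7 lay under 0.05, against 14.4% of genes tested. Nhlh1 and Ebf1 also had their lowest values in Arl13b-/- 2, at 0 and 60.3 normalized counts, whereas Tbr1 had its highest there, at 12151.

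No receptor or transducer of Reelin passed in either comparison. Of 13 genes, 8 were above 0 and 5 below in the comparison of 4 libraries, with a median of 0.016 and none past the threshold in limma. Before adjustment 2 of the 13 lay under 0.05, against 14.4% of genes tested. Over 6 libraries 9 were above 0 and 4 below, with a median of 0.15, none past the threshold and 0 under 0.05 before adjustment. Vldlr, a Reelin receptor, had 1369 and 1620 normalized counts in Arl13b-/- 1 and 3, against 1106 and 1200 in wild type 2 and 3, a difference of 0.35 ± 0.093 (SE; limma adjusted p = 0.205). Lrp8, the other receptor, differed by 0.034 ± 0.074, and Dab1, the adaptor that both receptors engage, by 0.016 ± 0.057 (limma adjusted p = 0.870 and 0.924). Both signs turned without wild type 2, to −0.065 and −0.041. All of Vldlr, Lrp8 and Dab1 were highest in Arl13b-/- 2 and wild type 1, with 3745, 8743 and 8899 normalized counts in Arl13b-/- 2 and 2583, 8327 and 5273 in wild type 1.

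Cxcl12, the chemokine with which the meninges hold Cajal-Retzius cells at the surface, had 1152 and 1207 normalized counts in Arl13b-/- 1 and 3, against 1337 and 1372 in wild type 2 and 3, a difference of −0.19 ± 0.057 (SE). Its receptor Cxcr4 differed by 0.53 ± 0.14, and Ackr3, a second receptor that scavenges it, by 0.36 ± 0.076. None of the 3 passed (limma adjusted p = 0.245, 0.214 and 0.144), and their groups of 2 did not overlap, as for 47.5% of genes tested. Over 6 libraries all 3 were below 0, at −0.65 for Cxcl12, −0.75 for Cxcr4 and −0.67 for Ackr3. Cxcr4 and Ackr3 had 61.7 and 90.8 normalized counts in Arl13b-/- 2, the same low library as for the 6 member factors.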

How the data were processed

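The authors deposited a single table for the 6 poly(A) RNA libraries, holding counts normalized and variance-stabilised to a log2 scale. The submitters' processing notes list these tools and this build, without saying what each did: Salmon 0.9.1, STAR 2.6.0, DESeq2, DESeq 1.16.1, CASAVA and mm9. How genes were annotated or filtered is not stated there. The lowest value, 5.13, was common to all libraries and was taken as a count of 0, which fixes the transformation, and inverting it gave normalized counts, which depend on gene length and were not compared between genes. The smallest steps gave the value of 1 read and hence depth. Of values under 30 reads, 68.0% to 81.2% were within 0.05 of a whole number, so no count test was run.

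Genes with a mean at least 1 above the lowest value (14249) were tested, two-sided, by limma 3.58.1 (R 4.3.3), moderating variances along a trend with the mean and adjusting p by Benjamini-Hochberg with a threshold of 0.05. A difference of variance-stabilised values understates the change of low genes. The members, the gene lists and the choice of 4 libraries were made with earlier results of these data known, and the midbrain list after values were seen. Named genes are all members, all listed Cajal-Retzius and CXCL12 genes, Vldlr, Lrp8 and Dab1, and the 3 genes of each source with the smallest p in the 4 libraries. Genes named beside a library's makeup, Emx1 among them, were chosen after values were seen. Some genes are not reported here. Likeness was Pearson's r across 6 libraries. The scripts were tested on simulated data. Alternatives were stricter and absent filters, median centring, a flat variance prior, robust moderation, weighted libraries, a replicate block, log2(normalized count + 1) and leaving out each library. Promoters are RefSeq's on GRCm38.p6, and no coordinates of the files' own build were used. Figures were drawn with matplotlib 3.10.9.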

Additional observations from a re-analysis of the deposited data

How the results depend on the processing

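Over 6 libraries, 0 genes passed under most settings, but 110 passed with library weights and from 0 to 4 passed when 1 library was left out, the 4 without wild type 1. In the comparison of 4 libraries 36 passed, against 0 with no filter, 7 without the mean-variance trend, 98 with robust moderation and from 6 (without wild type 2) to 725 (without Arl13b-/- 1) when 1 library was left out. Library weights turned the 6-library sign of 7 members, to 0.50 for Lhx1, 0.42 for Lhx5, 0.15 for Cacna2d2, 0.39 for Ebf2, 0.37 for Ebf3, 0.53 for Nhlh2 and 0.39 for Barhl2, which the small weights of Arl13b-/- 2 and wild type 1 bring close to the comparison of 4 libraries. With 1 library left out, 6-library differences ran from −0.15 to 0.86 for Ndnf, −2.06 to 0.97 for Lhx1, −2.0002 to 0.85 for Lhx5, −0.56 to 0.029 for Cacna2d2, −1.51 to 0.84 for Ebf2, −2.97 to 0.54 for Ebf3, −1.87 to 1.14 for Nhlh2 and −1.41 to 0.89 for Barhl2. With 1 of the 4 libraries left out they ran from −0.22 to 0.093 for Cdkn1a, −0.065 to 0.13 for Lrp8 and −0.041 to 0.074 for Dab1, and in that comparison no other named gene changed sign.

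The replicate block, for the numbers shared by both groups, gave 0 genes over 6 libraries. It cannot change a difference, as each number holds a library of both groups, and alters only the spread. Whether the numbers pair the libraries could not be judged. Deviations from the group means correlated at −0.71, −0.71 and 0.62 for numbers 1 to 3. Each Arl13b-/- library correlated better with a wild-type library of another number than with that of its own. Arl13b-/- 2 and wild type 1 dominate these deviations, so a smaller likeness by number could not show. No paired analysis was possible for the 4 libraries because they share only 1 replicate number. Values near 3 reads, as for Lhx1 in Arl13b-/- 2, are limited by depth, and the test of 2 against 2 rests on the spread between 2 libraries of a group.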

Other observations

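By the rule for likeness, Slit1, a secreted guidance ligand, followed Reln most closely across the 6 libraries (Pearson's r = 0.993, a description over 6 libraries that 1 high library dominates). It had 1475, 1528 and 1609 normalized counts in Arl13b-/- 1 to 3, against 2831, 1756 and 1821 in wild type 1 to 3. Having been picked by r to Reln, Slit1 shares the high value of wild type 1 through that choice. Its groups of 3 did not overlap, as for 8.26% of genes tested. The next were 1500017E21Rik and then Kcne2, a potassium channel subunit of the choroid plexus (r = 0.992 for each). Kcne2 had 2.18, 11.8 and 11.03 in Arl13b-/- 1 to 3, against 430, 43.5 and 46.2 in wild type 1 to 3. Its value in Arl13b-/- 1 corresponds to about 3 reads. For Ndnf the closest genes were Sorcs2, Adipor1 and Robo1 (r = 0.983, 0.982 and 0.982). Among the 6 member transcription factors, r was between 0.952 and 0.999 over 15 pairs. In all 6 the lowest value was that of Arl13b-/- 2, and this low library dominates r. Cell cycle genes also had their lowest sum there, at 2432 normalized counts, so such likeness is not particular to these factors. The closest gene to each member but Reln and Ndnf had r between 0.995 (Vwa3a, to Calb2) and 0.99998 (Asap3, to Ebf3).

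Wild type 1, the library with the highest Reln, Calb2 and Cacna2d2, was also the highest library for 6 of 10 GABAergic genes and 5 of 7 choroid plexus genes. This was not particular to these lists, as it held for 7 of 10 surface ectoderm genes, 3 of 5 microglia genes and 3 of 6 listed antihem genes. It held for 1 of 11 genes of postmitotic neurons and 0 of 11 cell cycle genes. The share of all genes highest in wild type 1 was not computed. The other GABAergic genes, Gad2, Dlx1, Dlx2 and Npy, were highest elsewhere, as were Foxj1 and Otx2 of the choroid plexus list. Gad1, an enzyme of GABA synthesis, had 829, 231 and 800 normalized counts in Arl13b-/- 1 to 3, against 3718, 569 and 750 in wild type 1 to 3. Ttr, the choroid plexus carrier of thyroid hormone, had 126, 1.32 and 227 in Arl13b-/- 1 to 3, against 25702, 1211 and 1322 in wild type 1 to 3. Excitatory neuron genes of the cortex, 5 genes chosen after values were seen, summed to 3311, 62564 and 1913 in Arl13b-/- 1 to 3, against 31873, 5851 and 7438 in wild type 1 to 3. The part of these cells in the Reln value was not tested.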
